A study of Mus musculus with 24 samples.

Results

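Elastic fibre genes were followed in cultured mouse lung fibroblasts as a set of 10 genes out of the 55291 names in each count file. The set was chosen by name, with earlier results of these data known. It holds elastin (Eln), the fibrillins Fbn1 and Fbn2, the fibulin family (Fbln1, Fbln2, Fbln5, Efemp1 and Efemp2), and the microfibril-associated Mfap4 and Mfap5. All 10 were found in every library, and all 10 passed the filter on low counts, which left 16258 genes to test. The cells came from C57BL/6 wild type (WT) mice and from mice labelled TLR4-/- on that background, which by the label lack the lipopolysaccharide receptor TLR4, at 4 to 8 weeks of age. Each group was grown from a pool of 3 to 4 lungs and used at passages 3 to 6, so the libraries do not stand for single animals. After a night in reduced serum medium, cells were kept for 24 h in 4 ways: in PBS as the control, with the recombinant mouse protein rmCIRP at 1 μg/ml, with the growth factor rmTGF-β1 at 2 ng/ml, or in a mixture of rmCIRP and rmTGF-β1. CIRP is an RNA-binding protein that acts as a danger signal when released from cells, and TGF-β1 is the main inducer of matrix synthesis in fibroblasts. There were 8 conditions with 3 libraries each. Nothing in the labels says that the 3 libraries are separate cultures, so p-values measure the spread between these libraries, which may be technical.

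Elastic fibres give lung tissue its recoil. In their assembly, fibrillin microfibrils form a scaffold, soluble tropoelastin (the product of Eln) is brought to it by fibulins such as fibulin-5 (Fbln5) and fibulin-4 (Efemp2), and lysyl oxidases cross-link the deposited elastin. Most elastin is laid down while the lung grows, and in adult tissue the protein turns over slowly, so its mRNA in cultured fibroblasts reports on synthesis and not on the fibres already made.

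Each library held between 29853346 and 39664606 counted reads (median 33585047). Libraries of 1 condition differed by more than counting error: the chi-square per degree of freedom between them ran from 2.55 to 47.2, with a median of 4.81. The highest value was between libraries 1 and 3 labelled TLR4-/- with both proteins, and library 3 stood apart. Tlr4 mRNA went against the genotype label: its normalised read count (reads divided by a library size factor) was 759 ± 41.9 (SD, n = 3) in WT with PBS and 903 ± 20.2 (SD, n = 3) in the libraries labelled TLR4-/- with PBS. Counts over the whole gene do not show whether the protein is made, so these libraries are called by their label throughout. Xist, which is transcribed from the inactive X chromosome of female cells, had at most 3 reads in any WT library and 4328 to 6096 normalised reads in the libraries labelled TLR4-/-. Sex, genotype and pool of lungs therefore cannot be told apart in any comparison between genotypes. In WT libraries with PBS, 10 fibroblast markers summed to 587746 to 626430 normalised reads. There 6 smooth muscle and pericyte markers summed to 124415 to 137119 and 13 macrophage markers to 91539 to 99765. In libraries labelled TLR4-/- with PBS those sums were 554383 to 616509, 81702 to 83788 and 350281 to 400475. The largest gene was Col1a1 in the fibroblast sums and Lyz2 in the macrophage sums, so the sums do not give shares of cells. Of 7 epithelial markers, Epcam, Sftpc, Sftpb and Scgb1a1 had between 0 and 11 reads, while Cdh1 had 2 to 99, Krt8 6 to 129 and Krt18 6 to 158. The 7 summed to 70.8 to 116 normalised reads in WT with PBS and to 327 to 346 in libraries labelled TLR4-/- with PBS. In bulk RNA, fewer cells of a type and less RNA per cell cannot be told apart.

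The upstream sequence of 3 fibulin genes is shown because members of 1 family had different outcomes: Efemp2 was lower with rmCIRP in WT cells, while Efemp1 and Fbln1 were not past the threshold there. The sequences are the 250 bases before the start in RefSeq (build GRCm38.p6), for a RefSeq start that lies within 2 bases of a GENCODE transcript start, 5′ to 3′. They lie on the plus strand at chr11:28852955-28853204 for Efemp1, chr15:85205699-85205948 for Fbln1 and chr19:5474440-5474689 for Efemp2.
Efemp1: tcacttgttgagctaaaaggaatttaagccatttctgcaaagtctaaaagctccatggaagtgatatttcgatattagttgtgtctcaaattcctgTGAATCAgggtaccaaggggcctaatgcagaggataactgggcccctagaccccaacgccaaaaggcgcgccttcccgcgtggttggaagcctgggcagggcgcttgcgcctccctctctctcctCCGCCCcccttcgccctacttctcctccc
Fbln1: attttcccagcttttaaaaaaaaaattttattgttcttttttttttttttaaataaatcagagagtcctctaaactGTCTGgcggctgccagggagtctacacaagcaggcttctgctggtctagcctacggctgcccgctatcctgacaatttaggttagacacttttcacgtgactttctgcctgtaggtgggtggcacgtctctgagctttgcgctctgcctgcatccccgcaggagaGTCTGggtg
Efemp2: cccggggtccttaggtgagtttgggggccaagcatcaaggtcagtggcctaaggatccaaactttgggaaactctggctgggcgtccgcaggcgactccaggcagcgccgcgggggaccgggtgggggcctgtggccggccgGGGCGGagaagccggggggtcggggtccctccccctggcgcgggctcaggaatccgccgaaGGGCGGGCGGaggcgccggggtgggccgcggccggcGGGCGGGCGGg
Capitals mark matches, on either strand, to any of 5 motifs searched: the SMAD-binding element CAGAC, the AP-1 site TGANTCA, the NF-kappaB site, the GC box GGGCGG and the TATA box TATAAA. Efemp1 held 1 AP-1 match, from base -154 counted from the start, and 1 GC box, from base -29. Fbln1 held 2 CAGAC matches. Efemp2 held 5 GC boxes, of which 4 overlap in pairs. The matches depend on the start taken. A second RefSeq start of Fbln1, not shown, held 2 CAGAC matches, 1 NF-kappaB match and 1 GC box. For Efemp2, 1 start not shown held 2 CAGAC matches and 2 GC boxes, and another held 5 GC boxes. Of 32851 RefSeq promoters cut to the same length, 42.2% held CAGAC, 6.75% the AP-1 site, 7.25% the NF-kappaB site, 32.7% the GC box and 12.4% the TATA box. These matches are a description of the letters and were not tested against the responses.

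The 10 genes differed widely in level. Per kilobase of exon, in WT cells with PBS, Fbln2 was at 19351 normalised reads per kb, above Fbn1 at 3621, Efemp2 at 2749 and Mfap5 at 2494. Fbln5 stood at 939 normalised reads per kb, Efemp1 at 810, Mfap4 at 439, Fbln1 at 297 and Eln at 161, and Fbn2, the fibrillin best known from development, was lowest at 13.4. The order of variation was different. Between the condition with the highest mean and the one with the lowest, Eln differed 15.5-fold, Mfap4 3.61-fold, Efemp1 3.28-fold, Fbn2 2.74-fold and Fbln1 2.23-fold, and the other 5 genes differed 1.27-fold to 1.93-fold. Reads of Fbln2 made up most of the summed normalised counts of the set, which ranged from 159390 to 167916 in WT with rmCIRP and from 208407 to 221849 in WT with rmTGF-β1. Several genes share exon bases with a gene on the opposite strand in GENCODE M21: Fbn1 with Gm9913 over 2442 bases, Eln with Gm30003 over 267, Efemp2 with Mus81 over 173, Fbn2 with Gm26507 over 129 and Mfap4 with Mapk7 over 89. The library kit keeps strand, but the strand setting of the counting is not given in the sources used here. Reads from these stretches may thus belong to either gene, or may have been left out as ambiguous, a tally of 4.57% to 5.23% of reads.

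In WT cells, elastin mRNA moved in opposite directions with rmCIRP and rmTGF-β1. In WT cells kept in PBS, Eln had 1089, 1326 and 1502 normalised reads, and rmCIRP brought it to 395, 257 and 272. The WT libraries with rmTGF-β1 had 4383, 5133 and 4811 normalised reads of Eln, and those with both had 1749, 1665 and 1599. None of these 4 groups overlapped another. In libraries labelled TLR4-/- kept in PBS, Eln had 468, 526 and 442 normalised reads, and with rmCIRP it had 503, 551 and 430. Those with rmTGF-β1 had 2101, 1338 and 1130 normalised reads, and those with both had 1134, 846 and 353. There the PBS and rmCIRP libraries overlapped, and the third library with both proteins lay below every PBS library. Ordered by mean, the conditions ran from WT with rmTGF-β1 (4776 ± 377, SD, n = 3) through WT with both (1671 ± 74.9), labelled TLR4-/- with rmTGF-β1 (1523 ± 511), WT with PBS (1306 ± 207), labelled TLR4-/- with both (778 ± 395), with rmCIRP (495 ± 61.3) and with PBS (479 ± 42.8) down to WT with rmCIRP (308 ± 75.6). Among neighbours in this order, the highest condition and the lowest stood clear of the next, and the other neighbouring pairs overlapped.

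**Figure D1:**
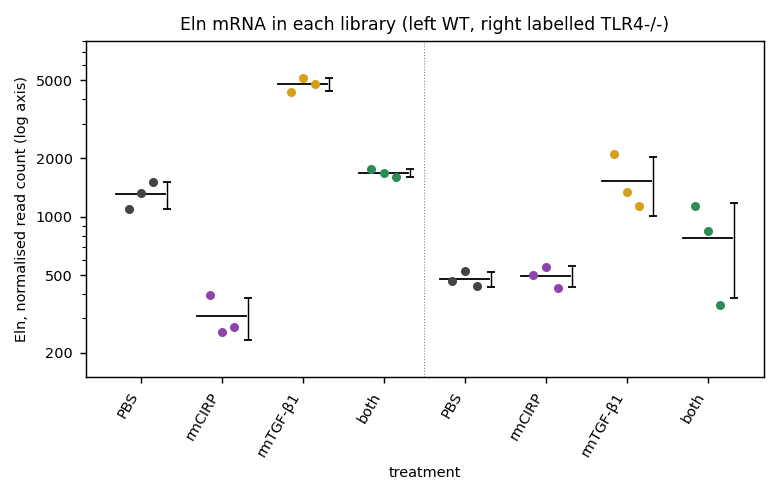
Eln mRNA in each of the 24 libraries, as normalised read count on a log axis, by treatment, with WT left of the dotted line and libraries labelled TLR4-/- right of it. Points are libraries, horizontal lines are means and bars are ± 1 SD (n = 3). The WT libraries with rmCIRP (257 to 395) lie below all other conditions except the third library labelled TLR4-/- with both proteins (353), and the WT libraries with rmTGF-β1 (4383 to 5133) lie above all others.

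The first comparison asked how rmCIRP alone changed these genes in WT cells. It lowered 7 of the 10 and raised none, at an adjusted p under 0.1 in edgeR's quasi-likelihood test (Benjamini-Hochberg adjustment over all genes tested), where 43.9% of all genes tested were called and 24.1% were called lower. The median log2 fold change was -0.20 for the 10 genes and -0.02 for all genes tested. Eln fell the most, by 2.09 on the log2 scale (SE 0.28 and adjusted p = 4.06e-06), a 4.26-fold lower level. For 6 of the 10 genes every rmCIRP library lay below every PBS library, as it did for 26.9% of all genes tested.

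Both fibrillins, the rod-like proteins that polymerise into microfibrils, fell with rmCIRP. Fbn1 had 42506, 44926 and 44308 normalised reads with PBS and 38485, 36971 and 36383 with rmCIRP. Every rmCIRP library was below every PBS library, and the log2 fold change was -0.24 (SE 0.05 and adjusted p = 0.000673). Fbn2 had 185, 182 and 163 normalised reads with PBS and 135, 120 and 134 with rmCIRP, which again did not overlap. Its log2 fold change was -0.45 (SE 0.14 and adjusted p = 0.0126).

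The fibulin family split by the threshold, and differences between its genes were not tested. Fbln2, an abundant fibulin that binds fibrillin and tropoelastin, had 125966, 122770 and 121057 normalised reads with PBS and 101624, 100566 and 95513 with rmCIRP. The groups did not overlap, and Fbln2 fell by 0.32 on the log2 scale (SE 0.05 and adjusted p = 4.81e-05). Efemp2, whose product fibulin-4 couples lysyl oxidase to tropoelastin, had 10415, 10540 and 10287 normalised reads with PBS against 9567, 9199 and 9339 with rmCIRP. Its fall of 0.16 on the log2 scale (SE 0.05 and adjusted p = 0.0103) was small, and the libraries did not overlap. Fbln5, which carries tropoelastin to microfibrils, had 6751, 6415 and 6309 normalised reads against 5812, 6036 and 5576, a log2 fold change of -0.17 (SE 0.07 and adjusted p = 0.0611). The call on Fbln5 was lost without WT library 1 with PBS (-0.12, adjusted p = 0.249), library 2 with PBS (-0.17, 0.112), library 1 with rmCIRP (-0.17, 0.106) or library 3 with rmCIRP (-0.12, 0.253). Fbln1, a fibulin of elastic fibre cores and basement membranes, had a log2 fold change of -0.09 (95% interval -0.26 to 0.08, adjusted p = 0.429). Efemp1, which encodes fibulin-3, had a log2 fold change of 0.01 (95% interval -0.16 to 0.17, adjusted p = 0.965). Libraries of the 2 groups overlapped for both of these genes.

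Of the microfibril-associated pair, Mfap4 was called lower and Mfap5 was not. Mfap4, which binds elastin and fibrillin, had 567, 1148 and 817 normalised reads with PBS and 682, 467 and 700 with rmCIRP. The groups overlapped, and the log2 fold change of -0.46 (SE 0.21 and adjusted p = 0.0969) was just past the threshold. It was not past it with RLE scaling (adjusted p = 0.102), with DESeq2 (0.166), with a filter at a mean count of 10 (0.107) or with the compared libraries alone (0.119), nor without WT library 2 with PBS (-0.16, adjusted p = 0.604), library 3 with PBS (-0.48, 0.140) or library 2 with rmCIRP (-0.28, 0.369). Mfap5, a small glycoprotein of microfibrils, had a log2 fold change of -0.11 (95% interval -0.23 to 0.02, adjusted p = 0.188), and it passed without the third library labelled TLR4-/- with both proteins (-0.11, 0.0891).

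Markers of cell types moved in the same comparison. With rmCIRP in WT cells, 7 of 10 fibroblast markers were lower and 2 higher, and their sum went from between 587746 and 626430 to between 468701 and 506720 normalised reads. Of 6 smooth muscle and pericyte markers 4 were lower, with sums of 124415 to 137119 with PBS and 87031 to 95010 with rmCIRP. Of 13 macrophage markers 10 were lower and 2 higher, Adgre1 (0.98 on the log2 scale) and Ptprc (0.56). Their sums, in which Lyz2 was the largest gene, were 91539 to 99765 and 76596 to 81279. The part of these shifts in the lower elastic fibre genes was not tested.

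**Figure D2:**
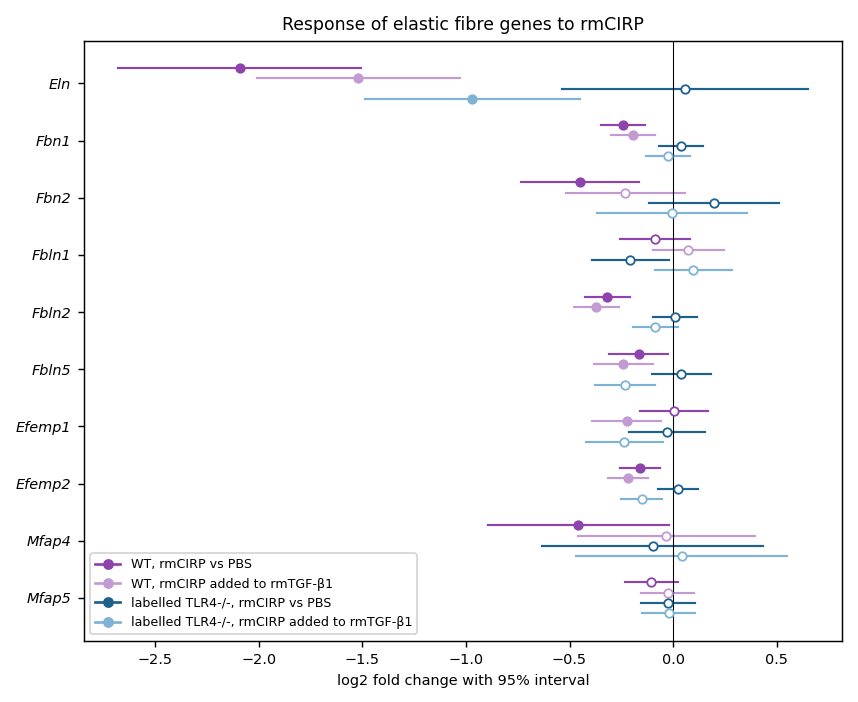
Log2 fold change of the 10 elastic fibre genes with rmCIRP, against PBS or added to rmTGF-β1, in WT (purple) and in libraries labelled TLR4-/- (blue), with 95% intervals from the edgeR fit. Filled points have an adjusted p under 0.1. Eln lies at -2.09 and -1.52 in WT, and at 0.06 and -0.97 in the libraries labelled TLR4-/-, while the other genes lie between -0.46 and 0.20.

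Adding rmTGF-β1 alone to WT cells was a test of the growth factor known to drive elastin synthesis. It raised 2 of the 10 genes, Eln and Fbn1, and lowered none, where 12.4% of all genes tested were called and 5.77% were called higher. Eln rose by 1.87 on the log2 scale (SE 0.24 and adjusted p = 2.58e-05), a 265% increase. Fbn1, with 50034, 51273 and 48198 normalised reads against 42506 to 44926 with PBS, rose by 0.18 on the log2 scale (SE 0.05 and adjusted p = 0.0314) without overlap. Together with Efemp2, 3 of the 10 genes were higher without overlap, against 14.1% of all genes tested. The call on Fbn1 was lost without WT library 2 with rmTGF-β1 (0.16, adjusted p = 0.153). The log2 fold changes of the 8 genes not past the threshold ran from -0.17 for Fbn2 to 0.17 for Mfap5, and the widest of their 95% intervals was that of Mfap4, from -0.33 to 0.52. The median was 0.05 for the 10 genes and -0.02 for all genes tested.

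When rmCIRP was added to rmTGF-β1 in WT cells, 6 of the 10 genes were lower than with rmTGF-β1 alone and none was higher, where 42.2% of all genes tested were called and 21.7% were called lower. Eln fell by 1.52 on the log2 scale (SE 0.24 and adjusted p = 2.56e-05), a 2.87-fold lower level, and Fbn1 fell by 0.19 (SE 0.05 and adjusted p = 0.00467). Fbln2 had 121417, 134262 and 128981 normalised reads with rmTGF-β1 and 100125, 101292 and 96986 with both, a log2 fold change of -0.37 (SE 0.05 and adjusted p = 8.01e-06). Fbln5, Efemp1 and Efemp2 had log2 fold changes of -0.24, -0.22 and -0.22. All 6 of these genes and Fbn2 were lower without overlap, against 25.0% of all genes tested. The call on Efemp1 was lost without WT library 1 with rmTGF-β1 (-0.19, adjusted p = 0.107) or library 1 with both (-0.18, 0.128). The log2 fold changes of Fbn2, Fbln1, Mfap4 and Mfap5 missed the threshold and ran from -0.23 to 0.07. The 10 fibroblast markers summed to 647684 to 657186 normalised reads with rmTGF-β1 and 524517 to 540934 with both, and 6 of them were lower and 1 higher. Of 6 smooth muscle and pericyte markers 4 were lower, with sums of 129680 to 138990 and 91020 to 95070. Of 13 macrophage markers 8 were lower and 2 higher, Adgre1 (1.06) and Ptprc (0.78), and the sums were 83230 to 95186 and 74986 to 84374. The part of these shifts was not tested.

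The same libraries set against rmCIRP alone showed what rmTGF-β1 did in its presence: Eln, Fbn1 and Mfap5 were higher, and none of the 10 was lower, where 20.5% of all genes tested were called and 10.0% were called higher. Eln rose by 2.44 on the log2 scale (SE 0.28 and adjusted p = 2.16e-06) to between 1599 and 1749 normalised reads, which is above all 3 WT libraries with PBS and below all 3 with rmTGF-β1. Fbn1 rose by 0.23 (SE 0.05 and adjusted p = 0.00354), from 36383 to 38485 normalised reads to 43421 to 43952, and Mfap5 by 0.25 (SE 0.06 and adjusted p = 0.00787), from 8259 to 8442 normalised reads to 9790 to 10007. For each of these genes, libraries with both lay above all those with rmCIRP alone. The same held for Fbln1 (0.16, adjusted p = 0.223) and Mfap4 (0.52, adjusted p = 0.109), which were not past the threshold. Of the 16258 genes tested, 2933 were higher without overlap, so a lack of overlap did not set the called genes apart. The number of genes called was 6 with no filter on low counts and 6 with the compared libraries alone, and 5 without the third library labelled TLR4-/- with both proteins, which enters the fit only through the shared estimate of spread. In each of these 3 fits 1 of the genes called, Efemp1, was lower.

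Whether the response to rmCIRP itself depended on rmTGF-β1 was tested by the interaction in WT cells. None of the 10 genes was past the threshold, where 0.0492% of all genes tested were called by edgeR and 5.64% had an unadjusted p under 0.05. For Eln the fall with rmCIRP was smaller by 0.57 on the log2 scale in the presence of rmTGF-β1, with a 95% interval from -0.19 to 1.34 (SE 0.37 and adjusted p = 0.939). The interaction terms of the other 9 genes ran from -0.23 for Efemp1 to 0.42 for Mfap4. With no filter on low counts, 2 of the 10 passed, Eln (0.56, adjusted p = 1.96e-07) and Mfap4 (0.41, adjusted p = 0.0163), so these calls changed with the filter.

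**Figure D3:**
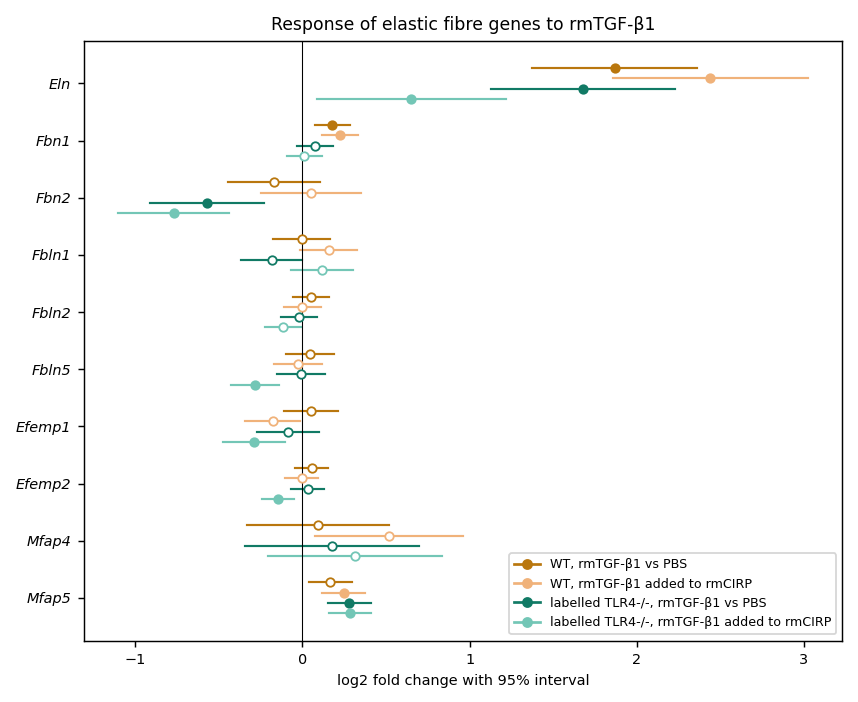
Log2 fold change of the 10 elastic fibre genes with rmTGF-β1, against PBS or added to rmCIRP, in WT (orange) and in libraries labelled TLR4-/- (green), with 95% intervals from the edgeR fit. Filled points have an adjusted p under 0.1. Eln is higher in all 4 comparisons (0.65 to 2.44), and Fbn2 lies at -0.57 and -0.77 in the libraries labelled TLR4-/-.

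In libraries labelled TLR4-/- with rmCIRP alone, the estimated log2 fold changes of the 10 genes ran from -0.21 for Fbln1 to 0.20 for Fbn2. edgeR called 0 of the 16258 genes tested, although 6.99% had an unadjusted p under 0.05. The 95% interval of Mfap4, from -0.63 to 0.44, holds its WT value of -0.46. Eln had a log2 fold change of 0.06 (SE 0.29 and adjusted p = 0.993), with a 95% interval from -0.54 to 0.65. The WT value of -2.09 lies outside that interval, and changes inside it were not detectable with these libraries.

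rmTGF-β1 alone raised Eln in these libraries by 1.68 on the log2 scale (SE 0.27 and adjusted p = 0.00011) without overlap. Mfap5 also rose, from 7798 to 8225 normalised reads with PBS to 9241 to 10363 with rmTGF-β1, by 0.28 on the log2 scale (SE 0.06 and adjusted p = 0.00273). Fbn2 fell from 109, 102 and 78.6 normalised reads to 66.3, 77.6 and 51.4, a log2 fold change of -0.57 (SE 0.16 and adjusted p = 0.0186), and that call was lost without library 3 with rmTGF-β1 (-0.42, adjusted p = 0.133). Thus 2 of the 10 genes were higher and 1 lower, where 23.9% of all genes tested were called, 12.1% higher and 11.7% lower. The other 7 had log2 fold changes from -0.19 to 0.18.

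With both proteins against rmTGF-β1 in libraries labelled TLR4-/-, Eln was the single gene of the 10 past the threshold, at a log2 fold change of -0.97 (SE 0.25 and adjusted p = 0.0752), where 2.69% of all genes tested were called and 1.13% were called lower. The groups overlapped: 1134, 846 and 353 normalised reads against 2101, 1338 and 1130. The call was lost without library 1 with rmTGF-β1 (-0.66, adjusted p = 0.411), library 2 with rmTGF-β1 (-1.05, 0.142) or library 3 with both (-0.63, 0.284), and in a fit of the compared libraries alone (-0.97, 0.679). The number called ranged from 0 to 4 when 1 library was left out, with 4 called without library 3 with rmTGF-β1 and 3 without library 1 or library 2 with both. The remaining 9 genes had log2 fold changes from -0.23 to 0.10. Over the same libraries the smooth muscle and pericyte markers summed to 71040 to 87328 normalised reads with rmTGF-β1 and 49397 to 77665 with both, and the macrophage markers to 367291 to 385142 and 349926 to 437241, and their part was not tested.

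Against rmCIRP alone in the same libraries, both proteins gave higher Eln (0.65 on the log2 scale, SE 0.27 and adjusted p = 0.0839) and Mfap5 (0.28, SE 0.06 and adjusted p = 0.00194) and lower Fbn2, Fbln5, Efemp1 and Efemp2, where 32.8% of all genes tested were called, 17.2% higher and 15.6% lower. Eln overlapped between the groups and was not past the threshold with DESeq2 (adjusted p = 0.101), with the compared libraries alone (0.272), or when a single library was left out, in 5 of 6 cases, with log2 fold changes of 0.29 to 0.75 and adjusted p of 0.105 to 0.453. The exception was the fit without the third library with both proteins, where the log2 fold change of Eln was 0.99 (adjusted p = 0.0014). Fbn2 had the largest fall, of 0.77 on the log2 scale (SE 0.16 and adjusted p = 0.00132), from 101 to 118 normalised reads to 46.4 to 80.9. Fbln5, Efemp1 and Efemp2 had log2 fold changes of -0.29, -0.29 and -0.15, and all 4 of the lower genes had no overlap between groups, against 16.5% of all genes tested. The calls on Efemp1 and Efemp2 were lost without the third library with both proteins (-0.22 and -0.07, adjusted p = 0.123 and 0.205), and in the fit of the compared libraries alone (-0.29 and -0.14, adjusted p = 0.115 and 0.212), and the call on Efemp1 was also lost without library 2 with rmCIRP (-0.21, 0.139). In this comparison 4 of 6 smooth muscle and pericyte markers were lower and 2 higher, 4 of 6 endothelial markers were higher, 3 of 5 mesothelial markers were lower, 4 of 13 macrophage markers were higher and 1 lower, and 4 of 10 fibroblast markers were lower and 1 higher. Sums with rmCIRP and with both were 82533 to 86319 and 49397 to 77665 normalised reads for smooth muscle and pericyte markers, and 338137 to 384374 and 349926 to 437241 for macrophage markers. The part of these shifts was not tested.

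The genotypes differed in the elastic fibre genes before any protein was added. With PBS, 9 of the 10 were lower in the libraries labelled TLR4-/- and 1, Fbln2, was higher, where 47.1% of all genes tested were called, 24.0% lower and 23.2% higher. None of the 10 overlapped between the genotypes, as was the case for 51.7% of all genes tested. The median log2 fold change was -0.76 for the 10 genes and -0.02 for all genes tested. Genotype, sex, pool of lungs and macrophage content cannot be told apart in these values.

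The widest gaps were in elastin, Mfap4 and Efemp1. Eln was at 1089 to 1502 normalised reads in WT and 442 to 526 in libraries labelled TLR4-/-, a log2 fold change of -1.45 (SE 0.27 and adjusted p = 0.000134). Mfap4 was at 567, 1148 and 817 against 265, 327 and 215, a log2 fold change of -1.65 (SE 0.23 and adjusted p = 4.03e-06). Efemp1 was at 1500, 1781 and 1668 against 705, 650 and 609, a log2 fold change of -1.34 (SE 0.08 and adjusted p = 8.88e-12). Their levels were thus 2.73-fold, 3.15-fold and 2.53-fold lower, in the order given.

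Fbn2 was at 185, 182 and 163 normalised reads in WT and 109, 102 and 78.6 in libraries labelled TLR4-/-, Fbln1 at 1218, 1424 and 1248 against 783, 605 and 742, and Fbln5 at 6751, 6415 and 6309 against 4411, 4209 and 3761. Fbn2 and Fbln1 were lower by similar amounts, with log2 fold changes of -0.88 (SE 0.14 and adjusted p = 3.08e-05) and -0.87 (SE 0.09 and adjusted p = 1.86e-08), and Fbln5 followed with -0.66 (SE 0.07 and adjusted p = 5.76e-08). Efemp2 and Fbn1 had smaller log2 fold changes of -0.32 (adjusted p = 6.82e-06) and -0.20 (adjusted p = 0.00324). Mfap5 had a log2 fold change of -0.15 (adjusted p = 0.0536), which was not past the threshold without WT library 2 with PBS (-0.07, adjusted p = 0.427) or library 3 labelled TLR4-/- with PBS (-0.11, 0.247). Fbln2 went the other way, at 125966, 122770 and 121057 normalised reads in WT and 151944, 156935 and 143318 in libraries labelled TLR4-/-, a log2 fold change of 0.29 (SE 0.05 and adjusted p = 0.00012).

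Beside these values, all 13 macrophage markers were higher in the libraries labelled TLR4-/- with PBS, with a median log2 fold change of 2.20. Of 10 fibroblast markers 4 were lower and 1 higher, with a median of -0.11, and of 6 smooth muscle and pericyte markers 4 were lower and 1 higher, with a median of -0.76. The part of cell make-up in the genotype difference was not tested.

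**Figure D4:**
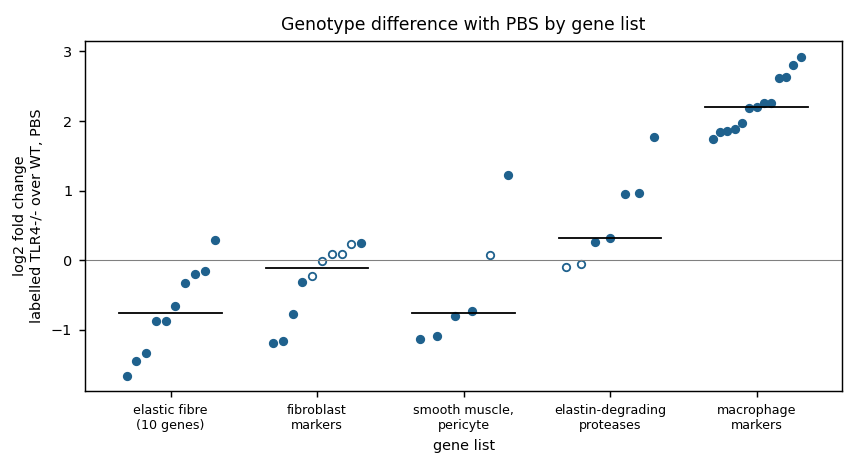
Log2 fold change of libraries labelled TLR4-/- over WT, both with PBS, for each gene of 5 lists, where filled points have an adjusted p under 0.1 in edgeR and horizontal lines are list medians. The elastic fibre genes (median -0.76) and the smooth muscle and pericyte markers (median -0.76) lie mostly below 0, and the 13 macrophage markers lie between 1.74 and 2.92.

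The response to rmCIRP differed between genotypes for 5 of the 10 genes, by a test of the difference itself, where 31.4% of all genes tested were called and 17.1% were called in the same direction. The value is the log2 fold change in libraries labelled TLR4-/- minus that in WT. For Eln it was 2.15 (SE 0.40 and adjusted p = 0.000421), which combines -2.09 in WT with 0.06 in libraries labelled TLR4-/-. It was 0.65 for Fbn2 (SE 0.20 and adjusted p = 0.0239), 0.33 for Fbln2 (SE 0.07 and adjusted p = 0.00228), 0.28 for Fbn1 (SE 0.07 and adjusted p = 0.00606) and 0.18 for Efemp2 (SE 0.07 and adjusted p = 0.0479). Each of these genes fell with rmCIRP in WT cells. The difference for Efemp2 was not past the threshold in 6 fits that each left out 1 library: WT libraries 1 and 2 with PBS, WT libraries 2 and 3 with rmCIRP, and libraries labelled TLR4-/- number 3 with PBS and number 2 with rmCIRP, with values of 0.15 to 0.16 and adjusted p of 0.118 to 0.135. Fbln5, lower in WT, had a difference of 0.21 (95% interval 0.0047 to 0.41, adjusted p = 0.131), and it passed with no filter on low counts (0.19, adjusted p = 0.0518), with the replicate block (0.21, 0.051), with the compared libraries alone (0.20, 0.0428), without library 1 labelled TLR4-/- with PBS (0.25, 0.0881) and without the third library labelled TLR4-/- with both proteins (0.21, 0.0466). For Mfap4 the difference was 0.36 (95% interval -0.33 to 1.05, adjusted p = 0.477), and it passed with no filter on low counts (0.34, 0.0318). Fbln1, Efemp1 and Mfap5 had differences of -0.12, -0.04 and 0.08, with adjusted p of 0.529 to 0.862. Sex, pool of lungs and macrophage markers differ between the genotypes and cannot be told apart from it here.

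The response to rmTGF-β1 was not past the threshold as a difference between genotypes for any of the 10 genes, where edgeR called 0.0861% of all genes tested and 10.4% had an unadjusted p under 0.05. For Eln the difference was -0.19 on the log2 scale, with a 95% interval from -0.93 to 0.55 (adjusted p = 0.904), which combines 1.87 in WT with 1.68 in libraries labelled TLR4-/-. The other 9 differences ran from -0.40 for Fbn2 to 0.11 for Mfap5.

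**Figure D5:**
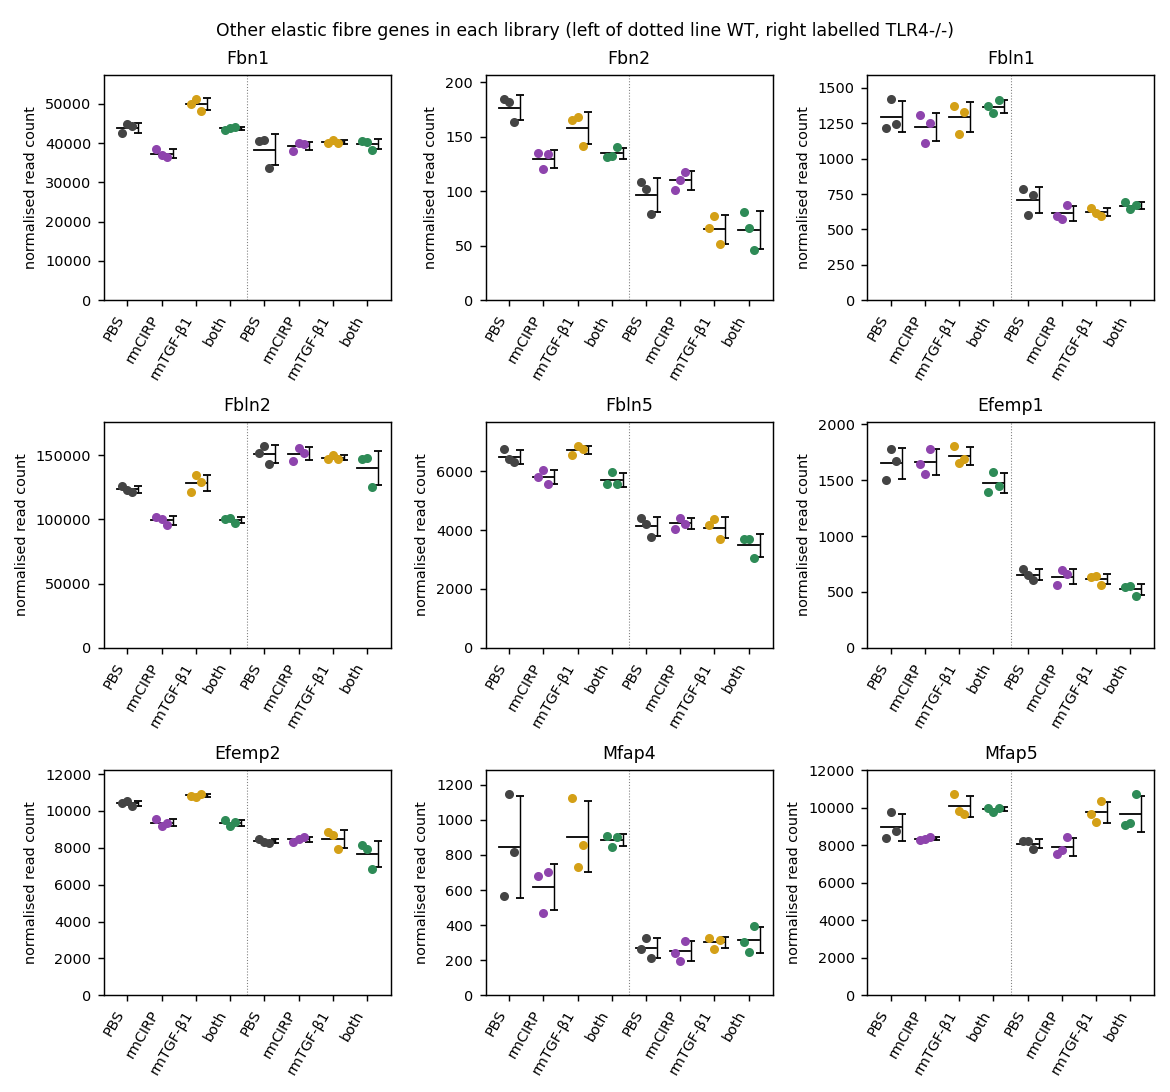
Normalised read counts of the other 9 elastic fibre genes in each of the 24 libraries by treatment, each on a linear axis from 0, with WT left of the dotted line and libraries labelled TLR4-/- right of it. Points are libraries, horizontal lines are means and bars are ± 1 SD (n = 3). For Fbn2, Fbln1, Fbln5, Efemp1, Efemp2 and Mfap4 every WT library lies above every library labelled TLR4-/-, whatever the treatment. The share of all genes tested with that pattern over all treatments was not counted, and with PBS alone it was 26.3%. Fbln2 is the gene that is higher in the libraries labelled TLR4-/-, with 125079 to 156935 normalised reads against 95513 to 134262 in WT.

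The lysyl oxidases, which cross-link elastin and collagen, followed the 2 proteins in different members. With rmCIRP in WT cells, where 24.1% of all genes tested were called lower, 3 of 5 were lower (Loxl3 by 0.81, Loxl1 by 0.41 and Loxl4 by 0.32 on the log2 scale, adjusted p = 8.89e-08, 0.00024 and 0.0228) and none was higher, with a median of -0.32. With rmTGF-β1, Lox and Loxl2 were higher in WT (log2 fold changes 0.62 and 0.23, adjusted p = 9.16e-06 and 0.00724) and in libraries labelled TLR4-/- (0.44 and 0.27, adjusted p = 0.000168 and 0.000757). Of all genes tested, 5.77% were called higher in WT and 12.1% in libraries labelled TLR4-/-. Lox had 55555 to 58493 normalised reads in WT with PBS, 54087 to 60246 with rmCIRP and 84749 to 91598 with rmTGF-β1. The rmCIRP response of Loxl3 and Loxl1 differed between genotypes (0.82 and 0.31, adjusted p = 2.03e-05 and 0.0426), where 17.1% of all genes tested were called in that direction. With PBS, Lox and Loxl2 were higher in libraries labelled TLR4-/- (log2 fold changes 0.55 and 0.20, adjusted p = 1.62e-06 and 0.00371) and Loxl1 lower (-0.42, adjusted p = 0.000184). In that comparison 23.2% of all genes tested were called higher and 24.0% lower.

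Among 20 further microfibril partners and latent TGF-β binding proteins, 11 were lower and 3 higher with rmCIRP in WT cells, with a median log2 fold change of -0.14, where 24.1% of all genes tested were called lower and 19.8% higher. Emilin1, which sits at the border of elastin and microfibrils, rose by 0.35 on the log2 scale (adjusted p = 2.04e-05), while Mfap2, also microfibril-associated, fell by 0.35 (adjusted p = 0.00092). Adamtsl2 had a log2 fold change of -0.68 (adjusted p = 0.0917). With both proteins against rmTGF-β1, Emilin1 had a log2 fold change of 0.65 (adjusted p = 2.13e-09). With rmTGF-β1 alone, 6 of the 20 were higher and 2 lower in WT, against 5.77% and 6.65% of all genes tested. Adamts6 (0.47, adjusted p = 2.28e-06) and Ltbp2 (0.35, adjusted p = 0.00748) were among the higher, and Tnxb (-0.58, adjusted p = 0.0571) among the lower. Between genotypes with PBS, 14 of the 20 were lower and 1 higher, against 24.0% and 23.2% of all genes tested, with a median of -0.50. Adamtsl2 had a log2 fold change of -1.69 (adjusted p = 0.000403), the proteoglycan gene Vcan -1.07 (adjusted p = 2.66e-11) and Tnxb -1.07 (adjusted p = 0.000123).

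The genes for enzymes that cut elastin did not share 1 direction with rmCIRP in WT cells: of 7 tested, 2 were higher and 3 lower, against 19.8% and 24.1% of all genes tested. Mmp9, a gelatinase that degrades elastin, rose by 1.09 on the log2 scale (SE 0.10 and adjusted p = 7.91e-09), Mmp12, the macrophage elastase, by 0.34 (adjusted p = 0.000481), and Mmp14, a membrane-bound collagenase, fell by 0.42 (adjusted p = 0.000256). Added to rmTGF-β1, rmCIRP raised Mmp9 by 2.13 (adjusted p = 1.42e-13), and the interaction was 1.04 (SE 0.14 and adjusted p = 0.0023). Of 6 inhibitor genes tested, 2 were higher with rmCIRP in WT and 3 lower, against the same shares. Slpi, an inhibitor of neutrophil elastase, rose by 1.34 (adjusted p = 1.2e-07) and Timp1 by 0.60 (adjusted p = 1.19e-06), while Timp3, which stays bound to matrix, fell by 0.54 (adjusted p = 2.91e-06). Between genotypes with PBS, 5 of 7 protease genes were higher and none lower, where 23.2% of all genes tested were called higher, with Ctss, an elastin-cutting cathepsin of macrophages, at 1.77 (adjusted p = 7.53e-15), next to the higher macrophage markers. All 3 genes of the elastin receptor complex (Neu1, Glb1 and Ctsa), which are also lysosomal enzymes, were higher there, by 0.48 to 1.10.

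By Pearson correlation of log2 CPM over the 24 libraries, among 12310 genes compared, the genes with a pattern most like that of Eln were Magi1 (r = 0.946, Spearman's rho = 0.952), Kif26b (0.942 and 0.970) and Nbl1 (0.941 and 0.917). The libraries fall into 8 conditions and separate by genotype for many genes, so these values describe a likeness over conditions and carry no test. Within the set, Fbn1 was most like Eln (r = 0.88) and Fbln2 was not like it (r = -0.000847). Fbln5 and Efemp1 were the most alike pair (r = 0.962), and Fbln1 and Fbln2 the most unlike (r = -0.818), with the genotype gap in opposite directions. For 8 of the other members, the nearest gene had r of 0.987 for Fbln1 (Sod3), 0.986 for Efemp1 (Gpc3), 0.985 for Fbln5 (Myh11), 0.984 for Fbln2 (Prss23), 0.976 for Efemp2 (Pdzrn3) and Mfap4 (Fxyd6), 0.940 for Fbn1 (Pdgfrb) and 0.889 for Mfap5 (Piezo2).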

How the data were processed

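RNA was sequenced in 24 libraries of cultured mouse lung fibroblasts. The authors prepared stranded total RNA libraries, sequenced them on an Illumina instrument and used STAR2 for alignment against mouse GENCODE. What they deposited is the raw ht-seq count for every gene symbol and library, with no normalization. The submitters' processing notes name FastQC, HTSeq and the build NCBIM37. The annotation release and the strand option are not given in the sources used here. Lines for unassigned reads (14.5% to 16.1% of reads) were left out. Of 55291 names, 53292 were in GENCODE M21, used for exon lengths and overlaps.

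Genes were filtered by filterByExpr (16258 kept), scaled by TMM, and tested in R 4.3.3 with edgeR 4.0.16, in 1 quasi-likelihood fit of 8 condition means. There were 12 comparisons, each adjusted by Benjamini-Hochberg over all genes tested, with an adjusted p under 0.1 called. The SE was obtained by dividing the absolute log2 fold change by the root of F. Normalised read counts are counts divided by DESeq2 1.42.0 size factors. The common biological coefficient of variation was 0.0571, but precision differed by gene. Within conditions the SD of log2 normalised counts was 0.39 for Eln, 0.32 for Mfap4 and 0.059 for Efemp2.

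All 10 members are named. Apart from cell type markers, genes of other lists are named only where they passed the threshold and were among the 3 largest changes of their list with a mean of at least 50 normalised counts. Not every gene that met this rule is named in every comparison. The members and lists were chosen with earlier results of these data known. Same-numbered libraries of different conditions did not deviate together (mean r = 0.012, with 4 of 84 pairs over 0.1; the highest were 0.369 and 0.182, with 0.064 for the remaining number, between rmTGF-β1 and both in libraries labelled TLR4-/-), so the numbers were not used as pairs. Alternatives were RLE scaling, no filter, a mean count of 10, a replicate block, DESeq2, the compared libraries alone, and leaving out each library. Leaving out the third library labelled TLR4-/- with both proteins was also tried in the other comparisons, a choice made after seeing the data.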

Additional observations from a re-analysis of the deposited data

Results flagged for a closer look

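For 5 elastic fibre genes the response to rmCIRP differed between the genotypes by the interaction test in edgeR, where 31.4% of all genes tested were called and 17.1% in the same direction. The difference, taken as the log2 fold change in libraries labelled TLR4-/- minus that in WT, was 2.15 for Eln (adjusted p = 0.000421), 0.65 for Fbn2 (0.0239), 0.33 for Fbln2 (0.00228), 0.28 for Fbn1 (0.00606) and 0.18 for Efemp2 (0.0479). All 5 were lower with rmCIRP in WT cells, where 24.1% of all genes tested were called lower. In the libraries labelled TLR4-/-, rmCIRP alone put 0 of the 16258 genes tested past the threshold, these 5 among them. Tlr4 mRNA itself had a difference of 0.02 (adjusted p = 0.885), and it was not lower in the libraries labelled TLR4-/-.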

How the results depend on the processing

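Apart from leaving out libraries, the number of the 10 genes called stayed within 1.5 times the reported count in 63 of 72 recounts. Fold changes of single genes were followed only for the genes called in a comparison and for Eln throughout. All 10 genes were followed with rmCIRP in WT, in the WT interaction and in the genotype difference in the rmCIRP response. These fold changes kept their direction in all 378 and their side of the threshold in 363. Elsewhere, genes newly called by an alternative enter the counts but not these 378 values. The exceptions in counts were these. For WT with both against rmCIRP (3 called) the count was 6 with no filter, 6 with the compared libraries alone and 5 without the third library labelled TLR4-/- with both proteins. For the WT interaction (0 called) it was 2 with no filter, where the adjusted p of Eln went from 0.939 to 1.96e-07 at nearly the same estimate. For libraries labelled TLR4-/- with both against rmTGF-β1 (1 called) it was 4 with no filter, 2 with a mean count of 10, 3 with the replicate block, 3 with DESeq2 and 0 with the compared libraries alone, and for both against rmCIRP (6 called) it was 3 with the compared libraries alone. The cause was not tested. Leaving out 1 library gave counts of 1 to 3 for rmTGF-β1 in WT, 3 to 5 for WT with both against rmCIRP, 0 to 4 for both against rmTGF-β1 in libraries labelled TLR4-/-, 5 to 8 for rmCIRP in WT and 4 to 6 for the genotype difference in that response. Reversals were in fold changes near 0: Eln with rmCIRP in libraries labelled TLR4-/- (-0.038 to 0.15), Efemp1 with rmCIRP in WT (-0.044 to 0.074) and the genotype difference for Efemp1 (-0.125 to 0.032). The replicate block, on numbers that did not pair the samples, also moved the genotype difference for Fbln5 past the threshold (0.21, adjusted p = 0.051). With 3 libraries a condition, the widest intervals were those of Eln and Mfap4.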
